A study of Mus musculus with 5 samples.

Results

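On day 6 of adipocyte differentiation, cells grown with the polymer P-G3 were set against untreated cells of the same day. The cells are 3546 with P-G3 and 2468 without, together 6014 of the 16713 kept cells of the series. A cell was kept if 500 or more genes were detected in it and no more than 20% of its UMIs (unique molecular identifiers, which count captured RNA molecules) came from mitochondrially encoded genes. Each side is 1 library. The differences below thus lack replicates, and the groups were not tested against each other. All 95% intervals cover counting error only.

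The study used 3T3-L1, a mouse fibroblast line that turns into fat cells in culture. Single-cell RNA libraries were made at day 0, before induction, and at days 3 and 6 with and without P-G3, 1 library for each of the 5 groups. Both day 6 cultures had been grown to confluence, induced with dexamethasone, insulin and IBMX in medium with serum, and then kept in medium with a lower dose of insulin. The D6 P-G3 culture had also received P-G3, a PAMAM polymer, at 10 µg/mL from the induction on day 0, and the D6 untreated culture had received no polymer. The line carries no transgene named in the labels, and nothing says how many cultures stand behind a library. The labels describe both day 6 samples as immature adipocytes, adipocytes and lipogenic adipocytes.

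In adipogenesis, the transcription factors PPARγ and C/EBPα switch on genes for adipokines, fatty acid uptake, fat synthesis and lipid droplets. At the same time the fibroblast programme of collagens, collagen-crosslinking enzymes and growth-arrest genes is turned down. Fully mature fat cells secrete adiponectin and adipsin and make monounsaturated fat with the desaturase SCD1.

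The adipocyte label held in both libraries. All 15 adipocyte markers checked stood higher in both day 6 libraries than on day 0, and their summed level was 180 CPM (UMI counts scaled to a common total of 1e6 a library) on day 0, 34463 on day 6 untreated and 40333 with P-G3. Ptprc, Adgre1 and C1qa of macrophages, Myod1 and Myog of muscle, Krt5 and Epcam of epithelium and Hbb-bs of red cells had no UMI in either day 6 library, which allows levels of up to 0.0339 and 0.0279 CPM (untreated, P-G3). None of 12 macrophage genes reached 5 CPM, and their summed level was 3.84 and 3.57 CPM. The muscle gene Acta1 had 2.41 and 5.92 CPM. Summed levels of the other lists were 6.64 and 8.16 CPM for endothelial genes, 14.8 and 22.9 CPM for epithelial genes and 106 and 75.9 CPM for bone and cartilage genes, and erythroid genes had no UMI. The part of such cells in the results was not tested.

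Many barcodes of both libraries carried little RNA. Of 5282 barcodes in the untreated library 46.7% were kept, and of 5719 with P-G3 62.0%. The kept cells carried 88432894 and 107429490 UMIs. Their median was 34214 UMIs untreated and 16658 with P-G3, but cells with at least 10000 UMIs held 97.4% and 95.9% of the UMIs, and among these the medians were 54694 and 53619. Mitochondrially encoded genes took 7.18% and 5.99% of UMIs, and ribosomal protein genes 19.8% and 22.8%. The libraries shared 6 barcodes, of which 1 was kept on both sides. In sums over a library, fewer cells of a type and less RNA per cell cannot be told apart.

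Few genes were much higher with P-G3, and the larger differences were mostly toward lower levels. Of the 5564 genes that reached 20 CPM on one side or the other, 7 (0.126%) stood 2-fold or more higher with P-G3. The number that stood 2-fold or more lower was 191 (3.43%). This balance depends on the scaling of the libraries. Ratios are log2 of CPM + 1 with P-G3 over CPM + 1 untreated, and over the 9137 genes with at least 5 CPM their median was -0.34. TMM scaling, which takes most genes as unchanged, shifts the ratios up by 0.40 (log2), as does median-of-ratios scaling, and the split then became 89 higher and 36 lower, or 85 and 36. The values below use total UMIs unless another scaling is named.

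**Figure D1:**
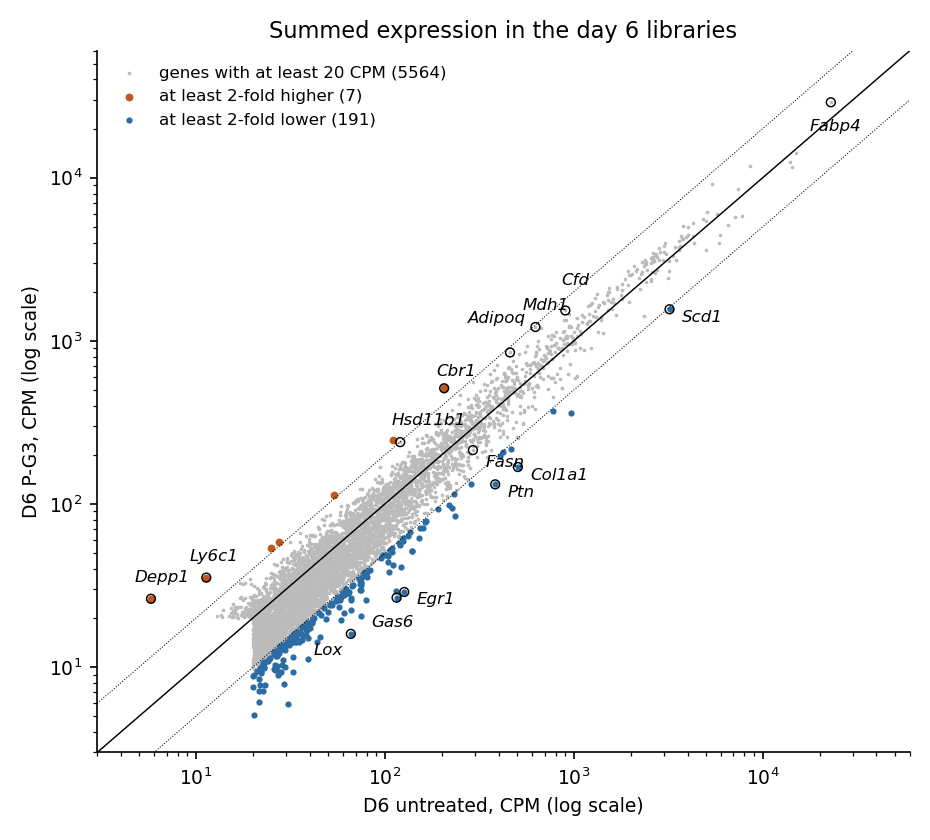
Each point is 1 of 5564 genes with at least 20 CPM, by its summed level in the D6 untreated library (x axis, CPM, log scale) and in the D6 P-G3 library (y axis, CPM, log scale). The solid line marks equal levels, the dotted lines a 2-fold difference of CPM, and colour the 7 genes above and 191 below that are past 2-fold after 1 CPM is added.

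Long transcripts stood lower with P-G3 than short ones. Across the genes with at least 5 CPM, the Spearman correlation of the ratio with transcript length was -0.62, a description across genes of 1 pair of libraries. The bin of shortest genes (median 737 nt) had a median ratio of 0.16 and the bin of longest genes (10019 nt) one of -0.72. The correlation was -0.59 among cells with 30000 to 60000 UMIs, and -0.60 between the day 3 libraries. The 191 lower genes had a median transcript length of 5612 nt, against 2842 nt for all genes tested and 1110 nt for the 7 higher genes. List medians and many gene ratios are therefore also given with the median of the length bin subtracted, called the length-removed ratio. The part of length in the results was not tested. With the trend removed, the genes past 2-fold were 26 higher and 28 lower ones, and 25 of the 28 were among the 191.

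**Figure D2:**
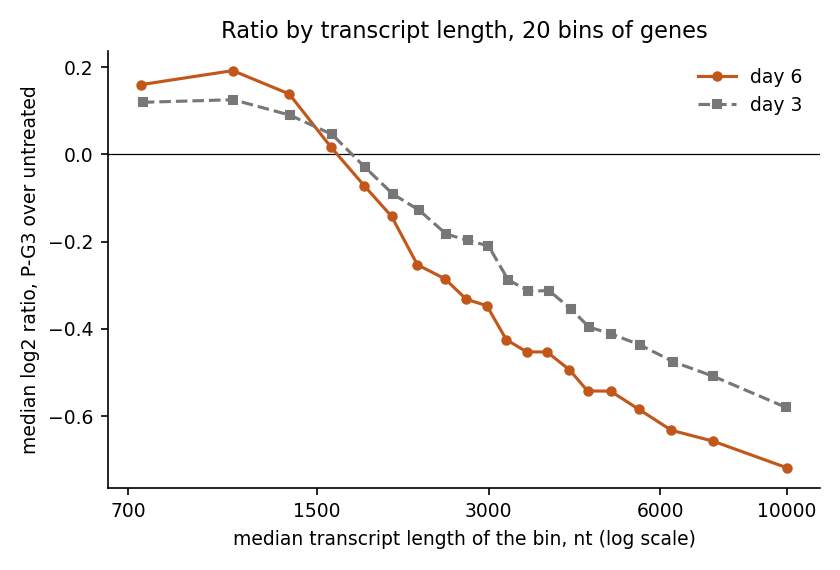
Median log2 ratio of P-G3 over untreated (y axis) in 20 bins of genes ordered by transcript length (x axis, nt, log scale), for day 6 (circles) and day 3 (squares). On day 6 the medians go from 0.16 in the shortest genes to -0.72 in the longest.

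The gene with the largest ratio among those named by rule was Cbr1, a carbonyl reductase that uses NADPH (ENSMUSG00000051483, chromosome 16, 93605853 to 93610505, GRCm38). Before induction its level was 40.4 CPM. Untreated and P-G3 cells had 61.3 and 96.8 CPM on day 3, then 206 and 512 CPM on day 6. Pairs of values below keep this order, untreated first. The day 6 log2 ratio was 1.31 (1.29 to 1.34, an interval of the ratio of counts without the added 1 CPM), and 1.17 with the length trend removed. Its relative Cbr2 had 110.5 and 246 CPM on day 6 (1.15, length-removed 0.96). Both were also higher with P-G3 on day 3, at 0.65 and 0.67. Ly6a, the surface protein known as Sca-1 that marks progenitors, stood at 27.6 and 58.2 CPM (1.05) although the other progenitor genes were mostly lower. The remaining genes past 2-fold were Fcf1, a ribosome assembly factor, at 1.07, Selenbp1, a selenium-binding protein, at 1.07, and Ly6c1 (1.56) and Depp1 (2.01). The last pair lies under the 50 CPM that the naming rule requires and was named after its values were seen, Ly6c1 at 11.3 and 35.4 CPM and Depp1 at 5.78 and 26.2 CPM.

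Adipokine genes, which encode the hormones and proteins that fat cells secrete, were led by higher levels of adiponectin and adipsin. Adipoq, the gene of adiponectin (ENSMUSG00000022878, chromosome 16, 23146536 to 23158028), had 0.0063 CPM before induction. It reached 32.6 and 63.0 CPM on day 3, then 459 and 849 CPM on day 6. Its ratio of 0.88 (0.87 to 0.90) on day 6 stands beside 0.93 on day 3, and it was 0.75 with the length trend removed. Cfd, the gene of adipsin, had no UMI on day 0, 46.9 and 64.4 CPM on day 3, and 902 and 1535 CPM on day 6 (0.77, length-removed 0.57). Retn, the gene of resistin, was at 1219 and 1659 CPM (0.44), and Agt, which encodes angiotensinogen, at 569 and 931 CPM (0.71). Apln, the gene of the peptide apelin, went the other way, with 66.7 and 38.5 CPM (-0.78, length-removed -0.35). Lep, the gene of leptin, had 51 UMIs untreated, or 0.577 CPM, and none with P-G3, at least 20.7-fold lower against the floor of 3 counts over the library. These UMIs came from few cells, since without thinning 0.324% of the 1541 untreated cells with at least 10000 UMIs held one. The ratio of Lep was -0.04 among cells with at most 10% mitochondrial UMIs and 0.00 among cells with 30000 to 60000 UMIs, so the difference rests on cells outside these filters. Of 15 adipokine genes measured, 7 were higher and 8 lower, and none passed 2-fold. Their median was -0.15, above 0 under TMM (0.19), median-of-ratios (0.19) and length-removed (0.06) values. Over all 9137 genes, 24.7% had a ratio above 0.

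Promoters of Adipoq and Cbr1, from the highest genes, and of Junb and Zfp36, from the immediate early genes described further on, are printed here. The highest genes were picked by their ratio, so their shared direction was fixed in advance and says nothing about their promoters. They are RefSeq sequences on GRCm38.p6 that run from 250 bases before to 50 bases after the annotated start, 5′ to 3′ on the gene's own strand. Adipoq is chr16:23146286-23146585 (plus strand), Cbr1 chr16:93607587-93607886 (plus strand), Junb chr8:84978699-84978998 (minus strand) and Zfp36 chr7:28379179-28379478 (minus strand). Capitals mark CCAAT in Adipoq and Cbr1, TATAAA in Junb and a CArG box, the binding element of serum response factor, in Zfp36, each searched on both strands, with ATTGG as the reverse of CCAAT.
Adipoq: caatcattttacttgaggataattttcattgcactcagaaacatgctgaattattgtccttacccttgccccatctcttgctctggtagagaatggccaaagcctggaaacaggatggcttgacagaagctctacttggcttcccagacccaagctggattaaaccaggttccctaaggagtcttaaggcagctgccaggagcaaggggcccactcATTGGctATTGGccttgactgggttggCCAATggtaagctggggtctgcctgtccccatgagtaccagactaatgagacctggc
Cbr1: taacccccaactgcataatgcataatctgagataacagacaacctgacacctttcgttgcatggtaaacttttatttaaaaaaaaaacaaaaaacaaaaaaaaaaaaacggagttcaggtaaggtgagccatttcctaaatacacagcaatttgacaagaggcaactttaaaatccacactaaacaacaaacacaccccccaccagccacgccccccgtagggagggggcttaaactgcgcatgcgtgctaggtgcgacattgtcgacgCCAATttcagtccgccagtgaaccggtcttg
Junb: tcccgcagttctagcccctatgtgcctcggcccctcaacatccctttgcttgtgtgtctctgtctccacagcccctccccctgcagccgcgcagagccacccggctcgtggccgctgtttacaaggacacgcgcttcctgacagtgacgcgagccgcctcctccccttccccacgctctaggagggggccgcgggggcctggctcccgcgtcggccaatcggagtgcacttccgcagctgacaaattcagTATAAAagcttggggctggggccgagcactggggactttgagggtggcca
Zfp36: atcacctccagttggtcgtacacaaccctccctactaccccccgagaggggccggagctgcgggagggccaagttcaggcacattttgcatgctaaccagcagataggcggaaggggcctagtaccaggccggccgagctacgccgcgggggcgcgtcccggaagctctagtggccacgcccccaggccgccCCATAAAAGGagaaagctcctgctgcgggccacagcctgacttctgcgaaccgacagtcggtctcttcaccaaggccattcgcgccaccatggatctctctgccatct
Adipoq held 3 CCAAT matches and Cbr1 held 1. Counted in bases before the start, the Adipoq matches began at 34, 27 and 7 and the Zfp36 CArG box at 58. The Cbr1 match began at -19, which is after the start, and the Junb TATAAA at 0. The RefSeq start of Cbr1 used here lies inside the gene span given earlier, which comes from GENCODE. A CCAAT match was present in 43.2% of the 7359 expressed genes with a promoter in the table, in 9 of 15 immediate early genes and in 10 of 22 proteasome genes. It was present in 16 of 17 cholesterol synthesis genes and in 17 of 18 chaperone genes of the endoplasmic reticulum. CArG boxes were found in 2 of the 15 immediate early genes, Egr2 and Zfp36, against 1.55% of expressed genes, and TATAAA in 2, Fos and Junb, against 8.23%. The cAMP response element TGACGTCA was found in Btg2 and Dusp1, against 3.85% of expressed genes. A match describes letters only.

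The adipocyte identity list was split. Of 23 measured members 11 were higher and 12 lower, beside 24.7% of all genes higher, with a median of -0.00 and none past 2-fold. The median was 0.39 under TMM and median-of-ratios scaling. With the length trend removed it was 0.10, and 16 of 23 were above 0, beside 4561 of all 9137 genes. Fabp4, the cytosolic carrier of fatty acids, had 30.4 CPM before induction, 6964 and 10918 CPM on day 3, and 22929 and 28993 CPM on day 6 (0.34). Its relative Fabp5 was at 8608 and 11852 CPM (0.46). Agpat2, an acyltransferase of phosphatidic acid synthesis, was at 426 and 632 CPM (0.57). Pparg, the master transcription factor of fat cells, was at 248 and 286 CPM (0.20, length-removed 0.35). Cebpa, its partner, was at 104 and 81.8 CPM (-0.35), with 0.04 under TMM.

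Of 20 adipogenic transcription factors measured 5 were higher and 15 lower, a share close to that of all genes (6880 of 9137 lower), with a median of -0.50, which was -0.13 under TMM and -0.05 with the length trend removed. Zbtb16, a zinc finger factor that dexamethasone induces, was past 2-fold, with 0.428 CPM on day 0, 38.8 and 20.8 CPM on day 3, and 25.9 and 9.74 CPM on day 6 (-1.32, length-removed -0.78). The retinoid receptor Rxra was at -0.79 (length-removed -0.25) and the glucocorticoid receptor Nr3c1 at -0.75 (length-removed -0.12). Glucocorticoid targets as a list had a median of -0.41 over 20 members, 6 higher and 14 lower, and it was -0.01 under TMM and turned to 0.04 length-removed. Against that median stood Hsd11b1, whose enzyme regenerates active glucocorticoid inside fat cells. It had 0.901 CPM before induction, 22.1 and 49.4 CPM on day 3, and 121 and 239 CPM on day 6, a ratio of 0.98 (0.96 to 1.02) and 0.97 with the length trend removed.

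Among genes of fat synthesis, only Scd1 was past 2-fold, and the list as a whole did not stand apart from the background. Scd1 (ENSMUSG00000037071, chromosome 19, 44394455 to 44407879) encodes a stearoyl-CoA desaturase, which puts a double bond into saturated fatty acids. Its level was 27.2 CPM before induction. The day 3 levels were 121 and 110.4 CPM, and the day 6 levels 3210 and 1561 CPM. The increase from day 3 to day 6 was thus present in both cultures, and the P-G3 culture ended lower. The day 6 ratio was -1.04 (-1.05 to -1.03), against -0.13 on day 3, and it was -0.64 under TMM and -0.50 with the length trend removed. It was also smaller among cells with at most 10% mitochondrial UMIs (-0.64) and among cells with 30000 to 60000 UMIs (-0.69). The small day 3 ratio turned to 0.12 under TMM and 0.28 length-removed. Scd2, a related desaturase, was at 1036 and 612 CPM (-0.76, length-removed -0.17). Acaca, which encodes acetyl-CoA carboxylase and commits carbon to fat, was at 53.6 and 30.2 CPM (-0.80, length-removed -0.09). Fasn, the gene of fatty acid synthase, was at 292 and 214 CPM (-0.45), a direction that turned to 0.27 with the length trend removed and was -0.05 under TMM. The 20 measured genes of de novo fatty acid synthesis had a median of -0.31, with 5 higher and 15 lower, beside 6880 of all 9137 genes lower and their median of -0.34. Length-removed, 16 of the 20 were above 0. That median was 0.09 under TMM, 0.08 under median-of-ratios and 0.08 length-removed.

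**Figure D3:**
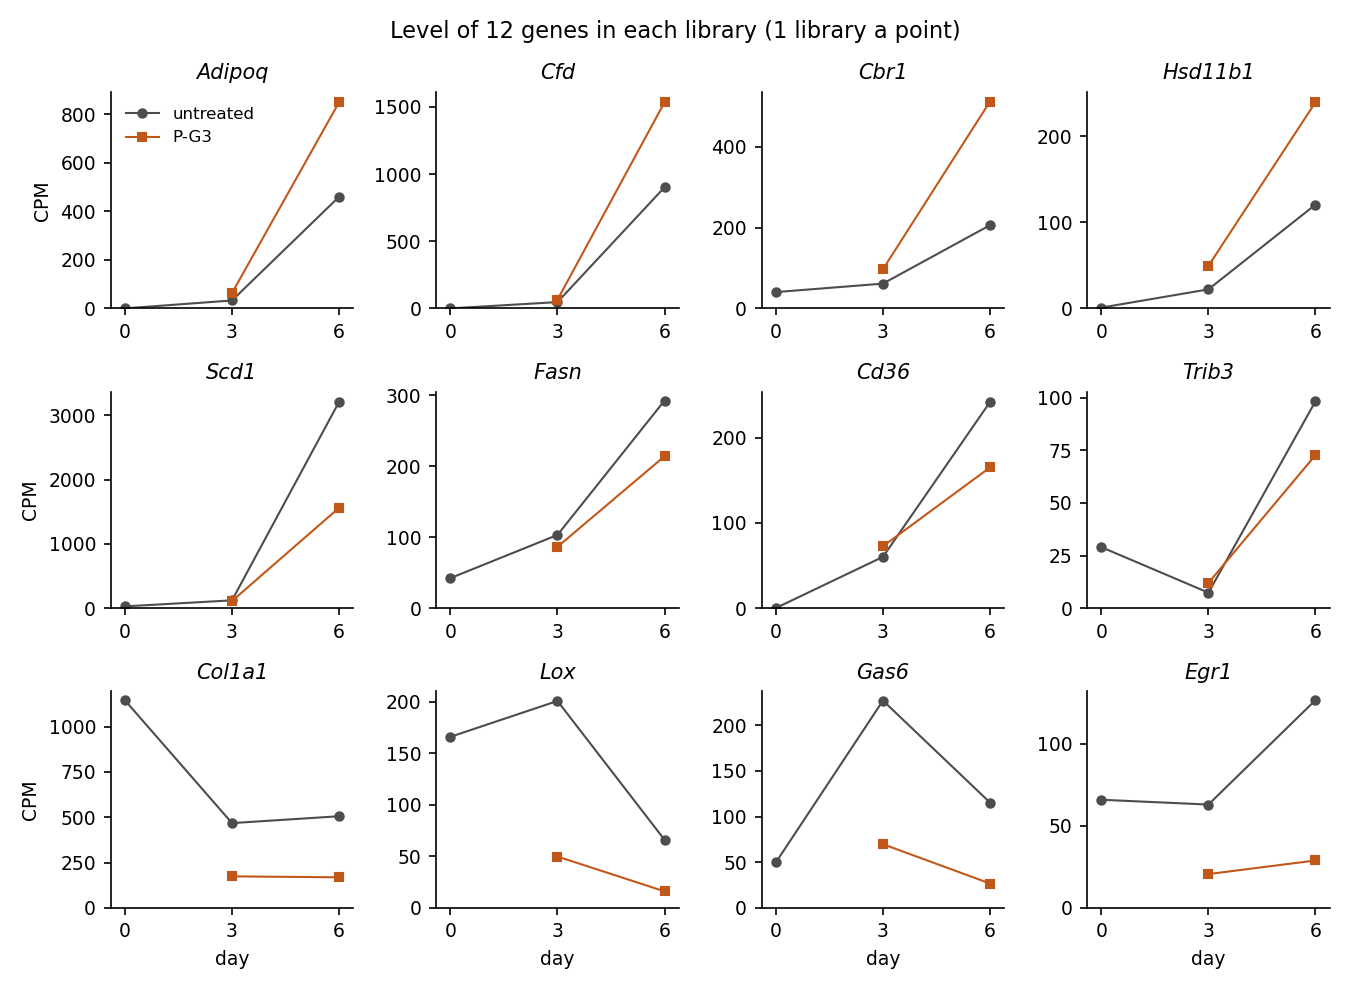
Level of 12 genes (y axis, CPM, each panel from 0 on its own scale) by day (x axis) in the untreated libraries (circles) and the P-G3 libraries (squares), 1 library a point. Adipoq and Cfd end higher with P-G3 on day 6 (849 against 459 CPM, 1535 against 902 CPM), and Scd1 ends lower (1561 against 3210 CPM).

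Lipid storage and uptake genes gave small differences that hang on the scaling. Triglyceride assembly genes had a median of -0.38 over 16 members (0.02 under TMM, 0.11 length-removed), with Gpat4 at 35.6 and 17.4 CPM (-0.996), just short of 2-fold, and Agpat2 higher. Lipid droplet proteins had a median of -0.03 over 15 members (0.36 under TMM, 0.21 length-removed). Plin1, the coat of mature droplets, was at 216 and 211 CPM (-0.03), Cidec, which enlarges droplets, at 599 and 515 CPM (-0.22, but 0.18 under TMM and 0.12 among cells with at most 10% mitochondrial UMIs), and Hilpda, an inhibitor of lipolysis, at 62.6 and 89.2 CPM (0.50). Lipolysis genes had a median of -0.02 over 10 members (0.38 under TMM, 0.18 length-removed). Pnpla2, the first lipase of fat breakdown, was at 404 and 403 CPM, and Pde3b, through which insulin restrains lipolysis, at 38.8 and 23.2 CPM (-0.72, length-removed -0.09). Fatty acid uptake genes had a median of -0.36 over 13 members (0.03 under TMM, 0.06 length-removed). Cd36, the fatty acid translocase, was at 242 and 165 CPM (-0.55, length-removed -0.10), and Lpl, the lipase that frees fatty acids from lipoproteins, at 5968 and 4430 CPM (-0.43, length-removed 0.06).

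Sums mix cells that had matured to different degrees, so cells were also compared at equal depth and within ranges of Adipoq. Each cell with at least 10000 UMIs was thinned at random to 10000, which used 1541 untreated and 1881 P-G3 cells and left out 927 and 1665 smaller ones. An Adipoq UMI was then found in 62.8% (60.3% to 65.2%) of untreated and 76.1% (74.1% to 78.0%) of P-G3 cells, and without thinning in 74.9% and 86.3%. The difference was 13.3 percentage points (Newcombe interval 10.2 to 16.3). In cells with no UMI of Cfd, Cidec, Plin1 or Retn, which should hold little Adipoq of their own, an Adipoq UMI was found in 8.37% of 203 cells untreated and 15.1% of 119 with P-G3, whose medians were 34866 and 32550 UMIs. Cells with at least 10 Adipoq UMIs made up 13.1% (202 cells) untreated and 32.1% (603 cells) with P-G3, while the range of 4 to 9 held 26.02% and 25.4%. Cells without an Adipoq UMI made up 37.2% and 23.9%. These are ranges of a graded level, not cell types, and 89 untreated and 75 P-G3 cells lay exactly on 4 UMIs, 49 and 61 exactly on 10. Doublets were not removed, and without the 5% of cells with most UMIs the difference in the Adipoq share was 14.2 percentage points.

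Within each range of Adipoq, Scd1 stayed lower with P-G3. In cells with 4 to 9 Adipoq UMIs its level was 4553 CPM in 401 untreated cells and 1704 CPM in 477 P-G3 cells, a ratio of -1.42 (-1.46 to -1.38). The median cell there held 31 Scd1 UMIs untreated and 9 with P-G3. The ratio was -1.40 in cells without an Adipoq UMI after thinning, -1.48 in the range of 1 to 3 and -1.09 in the range of 10 or more. With the length trend removed within each range it lay between -0.95 and -0.62. Ranges cut on the sum of Cfd, Cidec, Plin1 and Retn in place of Adipoq gave -1.34. The limit of 10% mitochondrial UMIs was not applied within the ranges. At 4 to 9 Adipoq UMIs the median mitochondrial share was 7.48% untreated and 5.55% with P-G3, and its part was not tested. Over all thinned cells the mean was 28.0 Scd1 UMIs untreated and 14.4 with P-G3. In the open range of 10 or more, Adipoq itself was higher with P-G3, at 1425 and 1736 CPM (0.28). Within each range the difference in Scd1 was larger than the -1.04 of the library sums, but only slightly so at 10 or more (-1.09). Fasn behaved likewise in total counts, between -0.77 and -0.66 in the 4 ranges, but its length-removed values lay between -0.13 and 0.24. Cidec, at -0.22 in the sums, was at 849 and 504 CPM in the range of 4 to 9 (-0.75), and between -0.83 and -0.55 over the ranges. Lpl lay between -0.85 and -0.50 (length-removed -0.33 to 0.02) and Cd36 between -1.14 and -0.54 (length-removed -0.72 to -0.13). The medians of all genes in the 4 ranges lay between -0.43 and -0.26. Cbr1 was higher in every range, by 0.73 to 1.14, and Hsd11b1 by 0.65 to 1.33. Fabp4, which the ranges do not use, differed by 0.00 to 0.32.

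**Figure D4:**
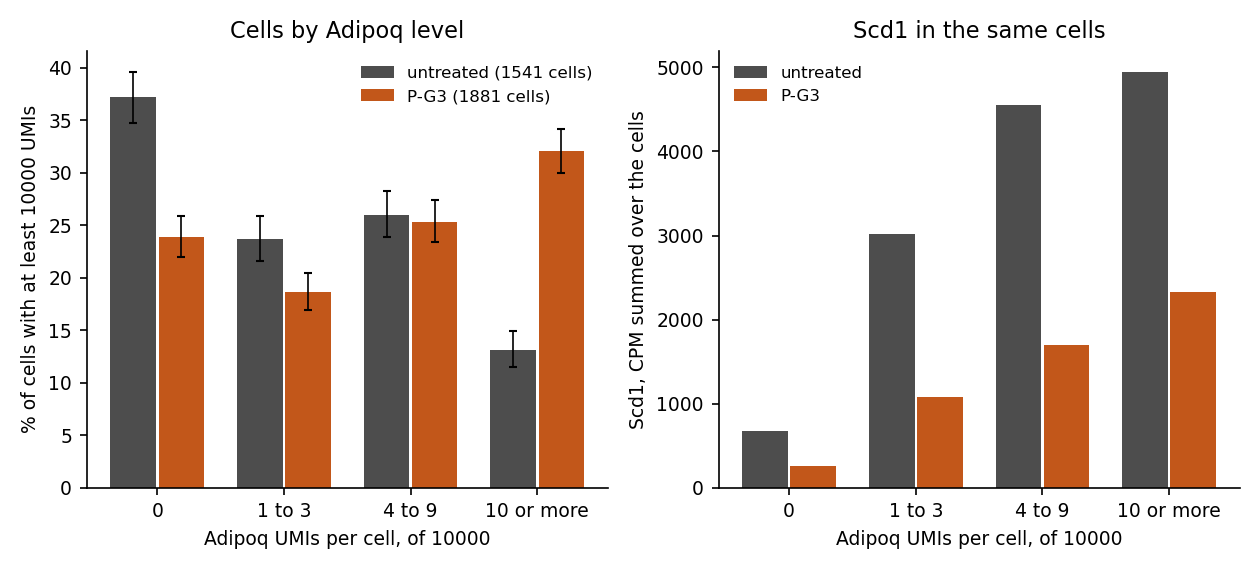
Left, share of cells with at least 10000 UMIs (y axis, %) in 4 ranges of Adipoq UMIs after thinning to 10000 (x axis), untreated and P-G3, with exact 95% intervals. Right, Scd1 level (y axis, CPM summed over the cells of a range, no error drawn) in the same ranges, lower with P-G3 in all 4, for example 1704 against 4553 CPM at 4 to 9 Adipoq UMIs.

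Genes of oxidative metabolism were higher as a group when encoded in the nucleus and lower when encoded in the mitochondrion. Of 57 nuclear genes of the respiratory chain 54 were higher, beside 24.7% of all genes, with a median of 0.35 (length-removed 0.25). Cyc1, the cytochrome c1 of complex III, stood at 390.3 and 712 CPM (0.87, length-removed 0.85). Atp5o, a subunit of ATP synthase, stood at 667 and 1195 CPM (0.84). All 13 mitochondrially encoded genes were lower with a median of -0.37, near the median of all genes, and their direction turned under TMM (0.02) and median-of-ratios (0.02). With the length trend removed their median was -0.56. The median share of mitochondrially encoded UMIs per kept cell was 6.03% untreated and 4.75% with P-G3, and its part in these values was not tested. On day 3 the nuclear genes were higher in 56 of 57, beside 2535 of all 9215 genes, with a median of 0.22, and the mitochondrially encoded ones had a median of -0.01.

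The citric acid cycle list had 15 of 25 members higher, beside 24.7% of all genes, and a median of 0.19 (length-removed 0.34). The highest ratio on the list was that of Mdh1, which encodes the cytosolic malate dehydrogenase and not the mitochondrial enzyme of the cycle itself. Mdh1 had 145 CPM before induction, 309 and 449 CPM on day 3, and 626 and 1215 CPM on day 6. That is a ratio of 0.96 (0.94 to 0.97), and 1.10 with the length trend removed. Sdhb of succinate dehydrogenase was at 214 and 342 CPM (0.67), and Pdhb of pyruvate dehydrogenase at 175 and 258 CPM (0.55). In glycolysis, 10 of 19 genes were higher, beside 24.7% of all genes, with a median of 0.03 (length-removed 0.23). Gapdh stood at 5419.9 and 9141 CPM (0.75), and Slc16a1, a transporter of lactate, at 30.02 and 14.9 CPM (-0.96). Beta-oxidation genes had a median of 0.04 over 19 members, with Etfb, which passes electrons from fat oxidation, at 763 and 1078 CPM (0.50). Genes of NAD synthesis and use were at -0.09 over 13 members (0.28 under TMM, 0.11 length-removed), thermogenic genes at -0.04 over 7 (0.35 and 0.07) and interferon-induced genes at -0.00 over 8 (0.39 and 0.06). The 3 nuclear-retained RNAs measured were lower, with a median of -0.57 (-0.18 under TMM, 0.15 length-removed). Hypoxia-responsive genes were 10 higher and 10 lower, beside 24.7% of all genes higher, with a median of -0.01 (0.38 under TMM, 0.24 length-removed). Length-removed, 18 of the 20 were above 0, beside 4561 of all 9137 genes.

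Cholesterol synthesis genes had 13 of 24 members higher, beside 24.7% of all genes, and a median of 0.04. With the length trend removed the list median was 0.34, and 22 of 24 were above 0, beside 4561 of all 9137 genes. Fdps, which makes farnesyl diphosphate for sterols and prenyl groups, had 232 CPM before induction, 133 and 259 CPM on day 3, and 292 and 556 CPM on day 6. The ratio was 0.93 on day 6 and 0.96 on day 3. Fdft1, the squalene synthase, was at 68.2 and 101 CPM (0.56), and Nsdhl, a sterol dehydrogenase, at 63.2 and 93.8 CPM (0.56). Fdps was close to its day 3 ratio, whereas the whole list had a day 3 median of 0.22.

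Proteasome subunit genes, which encode the machine that breaks down tagged proteins, were higher in 24 of 26 members, beside 24.7% of all genes. The list median was 0.34. With the length trend removed all 26 were above 0, beside 4561 of all 9137 genes, with a median of 0.26. Psma6 stood at 251 and 466 CPM (0.89), and Psma1 at 376 and 663 CPM (0.82). Chaperones of the endoplasmic reticulum, which fold secreted proteins, were lower in all 21 members, beside 6880 of all 9137 genes, with a median of -0.51. Under TMM this was -0.11, and length-removed -0.10. Calr, the calcium-binding chaperone calreticulin, stood at 537 and 308 CPM (-0.80, length-removed -0.55), and Xbp1, a transcription factor of the unfolded protein response, at 220.3 and 130.1 CPM (-0.76). Genes of the ATF4 stress response and serine synthesis were lower in 21 of 29, a share close to that of all genes (6880 of 9137), with a median of -0.19 that turned to 0.20 under TMM and 0.09 length-removed. Antioxidant and NRF2-linked genes were mixed, 11 of 26 higher, beside 24.7% of all genes, with a median of -0.20 (0.18 under TMM, 0.03 length-removed). Cbr1 belongs to this list, but Txnrd1, the thioredoxin reductase, was at 37.3 and 19.8 CPM (-0.88), Gsr, the glutathione reductase, at 74.8 and 41.1 CPM (-0.85), and Srxn1 at 38.4 and 21.4 CPM (-0.81).

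**Figure D5:**
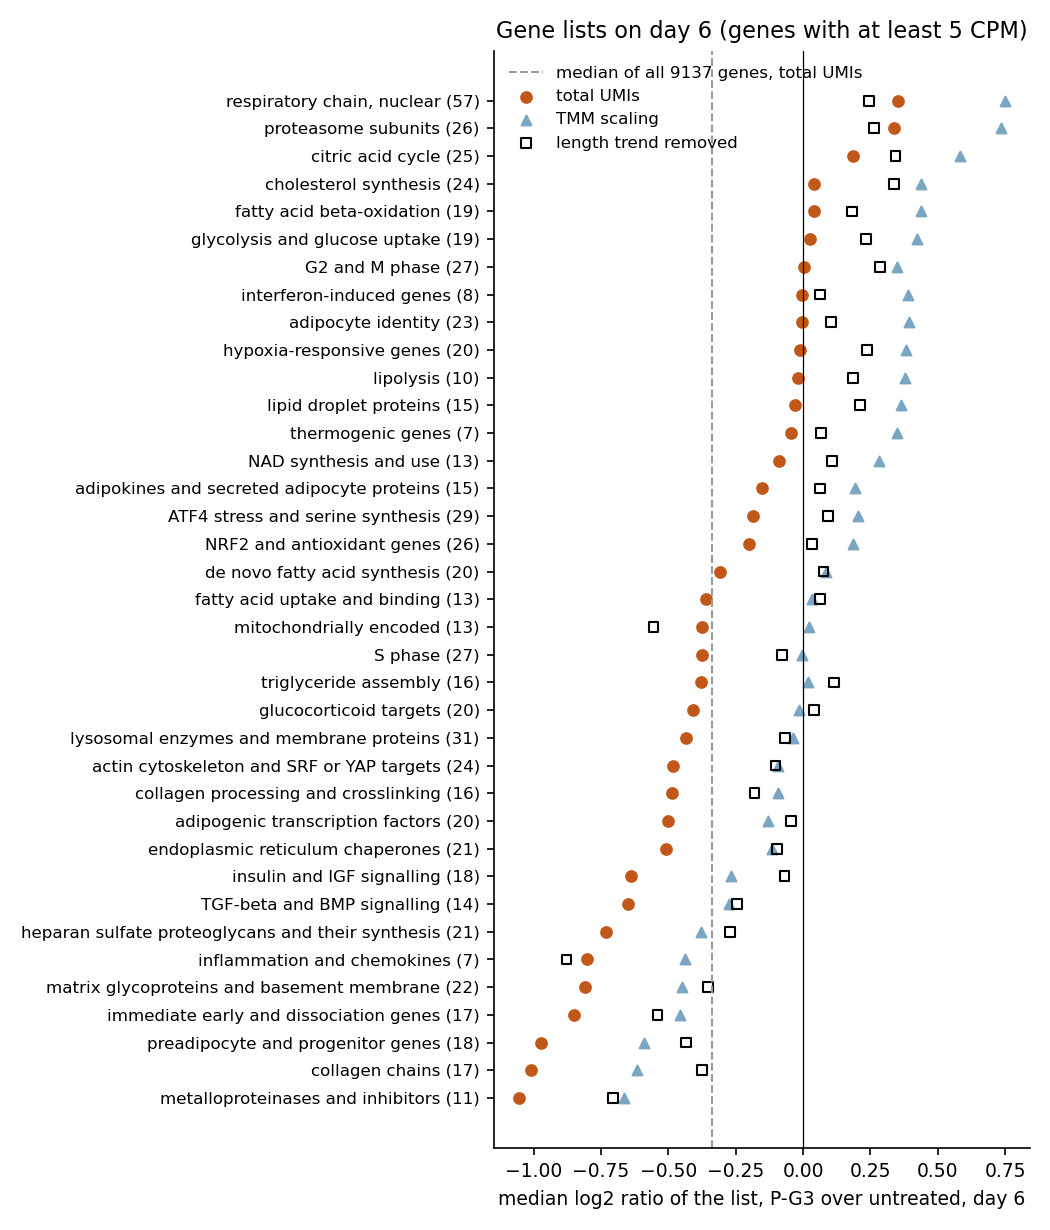
Median log2 ratio of P-G3 over untreated on day 6 (x axis) for each list with at least 5 measured genes (number in brackets), with total UMIs (circles), TMM scaling (triangles) and the length trend removed (squares). The dashed line is the median of all 9137 genes (-0.34), and collagen chains, metalloproteinases and preadipocyte genes lie below 0 in all 3 versions.

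Genes of the extracellular matrix stood lower. All 17 measured collagen chains were lower, beside 6880 of all 9137 genes, with a median of -1.01. Of the 14 with at least 20 CPM, 7 passed 2-fold, beside 3.43% of all genes. Under TMM the median was -0.62 and with the length trend removed -0.37, with 16 of 17 below 0. Col1a1, a chain of the main fibrillar collagen (ENSMUSG00000001506, chromosome 11, 94936224 to 94953042), had 1145 CPM before induction, 468 and 174 CPM on day 3, and 506 and 168 CPM on day 6. Its ratio was -1.58 (-1.61 to -1.56), length-removed -0.95, and its partner Col1a2 was at 962 and 361 CPM (-1.41). Col4a1 of basement membranes, which unlike Col1a1 stood higher on day 6 untreated than on day 0, had 364 CPM before induction, then 778 and 373 CPM on day 6 (-1.06, length-removed -0.43).

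Lox, the lysyl oxidase that crosslinks collagen and elastin (ENSMUSG00000024529, chromosome 18, 52516067 to 52529867), had 166 CPM before induction, 201 and 49.8 CPM on day 3, and 66.0 and 15.99 CPM on day 6. The ratio was -1.98 (-2.12 to -1.97), the same size as on day 3 (-1.99), and -1.44 length-removed. The collagen processing list had 15 of 16 members lower, beside 6880 of all 9137 genes, and a median of -0.49 (-0.09 under TMM, -0.18 length-removed). Fkbp10, a collagen chaperone, was at 62.5 and 29.97 CPM (-1.04). Matrix glycoproteins were lower in all 22 members, beside the same 6880 of 9137 genes, with a median of -0.81 (-0.45 under TMM, -0.35 length-removed). Postn, the gene of periostin, was at 139.6 and 51.8 CPM (-1.41), Fn1, the gene of fibronectin, at 285 and 133 CPM (-1.10), and Dcn, the gene of decorin, at 91.1 and 50.3 CPM (-0.84). Metalloproteinases and their inhibitors were lower in all 11 members, and 5 of 9 passed 2-fold, beside 3.43% of all genes. The list median was -1.06, -0.67 under TMM and -0.71 length-removed. Adamts1 stood at 45.6 and 15.3 CPM (-1.52), and the inhibitor Timp1 at 61.6 and 28.1 CPM (-1.11, length-removed -1.27), the latter after 2194 CPM on day 0. Among kept cells under 10000 UMIs, a comparison added after the data were seen and holding few UMIs, the ratios of Lox (0.21), Postn (0.09), Adamts1 (0.09) and Timp1 (0.16) were above 0. In the same small cells Adipoq (-0.07), Cfd (-0.45), Retn (-0.22) and Fabp4 (-0.11) were below 0.

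Heparan sulfate proteoglycans carry the long negative sugar chains of the cell surface, to which many positively charged molecules bind. All 21 measured genes for their core proteins and synthesis were lower, beside 6880 of all 9137 genes. The list median was -0.73 (-0.38 under TMM, -0.27 length-removed). Of the 12 with at least 20 CPM, 2 passed 2-fold, beside 3.43% of all genes. Hspg2, the gene of perlecan, had 74.3 CPM before induction, 101 and 57.6 CPM on day 3, and 104 and 44.0 CPM on day 6 (-1.22, length-removed -0.50). Ndst1, a sulfotransferase that starts chain modification, was at 27.1 and 11.99 CPM (-1.11), and the core protein gene Sdc1 at 67.2 and 35.4 CPM (-0.91). On day 3 all 21 were lower too, beside 6680 of all 9215 genes, with a median of -0.55. Lysosomal genes, which serve the breakdown of what the cell takes in, were lower in 25 of 31, beside 6880 of all 9137 genes, with a median of -0.44 (-0.04 under TMM, -0.07 length-removed). Length-removed, 14 were higher and 17 lower. Lamp1, a membrane protein of lysosomes, was at 282 and 167 CPM (-0.75).

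Preadipocyte and progenitor genes were lower in 16 of 18 measured members, beside 6880 of all 9137 genes, with a median of -0.97. Of the 14 with at least 20 CPM, 6 passed 2-fold downward, beside 3.43% of all genes, and Ly6a passed it upward. The list median was -0.59 under TMM and -0.44 length-removed. Gas6, a growth arrest gene that encodes a ligand of TAM receptors (ENSMUSG00000031451, chromosome 8, 13465374 to 13494490), had 49.8 CPM before induction, 227 and 69.7 CPM on day 3, and 115 and 26.6 CPM on day 6. Its ratio was -2.07 (-2.17 to -2.05), length-removed -1.79. Pdgfrb, a growth factor receptor of mesenchymal cells, was at 27.3 and 8.89 CPM (-1.52), and Gas1 at 114 and 29.1 CPM (-1.94). Dlk1, known as preadipocyte factor 1, was at 342 and 258 CPM (-0.41), with -0.01 under TMM and 0.14 length-removed. At 10000 UMIs a Col1a1 UMI was found in 56.0% of untreated and 43.1% of P-G3 cells, and a Lox UMI in 29.7% and 11.9%. Cells with at least 10 Adipoq UMIs, which should hold little of either gene, had no Col1a1 UMI in 79.7% (untreated) and 85.7% (P-G3) and no Lox UMI in 95.05% and 97.3%. The median depths of those cells before thinning were 66160 and 63414 UMIs.

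The share of cells without an Adipoq UMI after thinning was itself lower with P-G3. The fibroblast genes were therefore also read within that range, in 573 untreated and 450 P-G3 cells. There Col1a1 stood at 1665 and 721 CPM (-1.21, length-removed -0.47) and Gas6 at 389.9 and 83.3 CPM (-2.21, length-removed -1.83). Lox stood at 226 and 82.0 CPM (-1.45, length-removed -0.79). All 3 were therefore also lower within cells that had no Adipoq UMI after thinning. Some cells of this range did hold Adipoq before thinning. Without thinning an Adipoq UMI was found in 74.9% of all 1541 untreated and 86.3% of all 1881 P-G3 cells, against 62.8% and 76.1% with it. The 2 sides were not alike in this range in other adipocyte genes. Fabp4 stood at 8122 and 10173 CPM (0.32), while the adipocyte identity list had 6 members higher and 15 lower. The part of maturity in these values was not tested. In the same range the collagen list had a median of -1.01 and the preadipocyte list of -0.77, beside -0.43 for all genes. Length-removed, these list medians were -0.27 and -0.04. In the range of 4 to 9 Adipoq UMIs the collagen median was -0.63 and the preadipocyte median -0.26, beside -0.29 for all genes, and length-removed they were -0.10 and 0.24. In the range of 1 to 3 the medians were -0.57 and -0.24, beside -0.32, and length-removed 0.03 and 0.34. There Col1a1 was at 355 and 278 CPM (-0.35), which turned to 0.25 length-removed.

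Signalling genes were lower in several families in total counts, where 6880 of all 9137 genes were lower with a median of -0.34. Insulin, IGF and actin genes lay nearer 0 with the length trend removed. Of 14 measured genes of TGF-beta and BMP signalling none was higher, and the median was -0.65 (-0.27 under TMM, -0.25 length-removed). Fst, the gene of follistatin, which binds activins, stood at 20.3 and 5.08 CPM (-1.81, length-removed -1.48). All 18 genes of insulin and IGF signalling were lower, with a median of -0.64. They are long, and length-removed the median was -0.07, with 7 higher and 11 lower. Insr, the insulin receptor, was at 35.7 and 19.7 CPM (-0.82, length-removed -0.10), and Pik3r1, the regulatory subunit of PI3-kinase, at 122 and 61.7 CPM (-0.97, length-removed -0.32). Actin cytoskeleton genes were lower in 21 of 24 with a median of -0.48 (-0.09 under TMM, -0.10 length-removed), and Myh9 of non-muscle myosin was past 2-fold, at 111 and 42.1 CPM (-1.38). Inflammation and chemokine genes had a median of -0.80 over 7 members, 6 of them lower (-0.44 under TMM, -0.88 length-removed). The chemokine gene Cxcl12 was at 234 and 84.2 CPM (-1.46, length-removed -0.88).

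Immediate early genes, which cells switch on within minutes of a stimulus and also while being dissociated, were lower in 14 of 17 members with a median of -0.85. Of all 9137 genes 6880 were lower, with a median of -0.34. The list median was -0.46 under TMM and -0.54 length-removed, when 12 of 17 were below 0, beside 4561 of all 9137 genes. Egr1, a zinc finger factor (ENSMUSG00000038418, chromosome 18, 34859823 to 34864984), had the lowest ratio of all genes named by rule. It had 65.9 CPM before induction, 63.0 and 20.6 CPM on day 3, and 127 and 28.9 CPM on day 6, a ratio of -2.10 (-2.19 to -2.08) and -1.55 length-removed. At 10000 UMIs an Egr1 UMI was found in 54.9% of untreated and 19.7% of P-G3 cells, and the ratio lay between -2.38 and -1.33 in the 4 ranges of Adipoq. Junb, a subunit of AP-1 whose promoter is printed above, was at 66.3 and 22.6 CPM (-1.51), Ier2 at 165 and 78.4 CPM (-1.07), and Zfp36, which speeds the decay of cytokine messages, at 44.7 and 22.6 CPM (-0.96). The cells were freed with trypsin in every group, and a difference in handling between the libraries cannot be told apart from P-G3.

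Cell cycle genes were low on day 6 in both cultures. The 30 S phase genes summed to 1941 CPM on day 0 and to 551 and 439 CPM on day 6, and the 30 G2 and M phase genes to 2042 CPM on day 0 and to 516 and 506 CPM. The S phase median was -0.38 (-0.00 under TMM, -0.08 length-removed) and the G2 and M phase median 0.00 (0.35 under TMM, 0.29 length-removed). At 10000 UMIs an Mki67 UMI, a marker of dividing cells, was found in 4.67% (3.67% to 5.85%) of untreated and 3.14% (2.40% to 4.03%) of P-G3 cells.

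The day 3 libraries, which share no cells or controls with those of day 6, gave the same direction for most of these genes. On day 3, 7 of 5439 genes (0.129%) were past 2-fold higher, and 117 (2.15%) were past 2-fold lower. Of the lower genes 46 were in both lists, which is 24.1% of those of day 6 and 39.3% of those of day 3. Of the higher genes none was in both. Among the 191 genes lower on day 6, 189 had at least 5 CPM on day 3 and 187 of these were below 0, and all 5 of the higher genes measured on day 3 were above 0. Over all genes with at least 5 CPM on day 3, 6680 of 9215 were below 0. The 191 genes are long (median 5612 nt), and long genes were lower on day 3 too. There the bin with a median length of 5520 nt had a median ratio of -0.44. The part of length in the shared direction was not tested. Scd1 and mt-Nd6 differed in size between the days, Scd1 from -0.13 to -1.04 and mt-Nd6, a subunit of complex I, from 0.03 to -1.08. These differences between days were not tested.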

How the data were processed

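The deposited values are whole-number UMI counts per gene and cell barcode, 1 matrix a library. Per the submitters' processing notes they were made with Cell Ranger 3.1.0 on GRCm38, whereas the file headers name version 5.0.1, and the annotation release is not given in the sources used here. The labels name the v2 protocol and the barcodes have 16 bases. Groups come from the labels, with 1 library each, so no test was made and edgeR and DESeq2 supplied scaling factors only.

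Kept cells (500 or more detected genes, at most 20% of UMIs from symbols starting mt-) were summed per library and given as CPM of all their UMIs, with kept totals between 88432894 and 179221992. Ratios are log2(CPM + 1) differences, 2-fold counts use genes that reach 20 CPM on one side or the other, and lists those that reach 5 CPM. Intervals are exact for counts and for shares (Clopper-Pearson), at 95%, and cover counting error only. A count of 0 allows 3 counts. Where a symbol occurs in several rows (Aldoa, Ddit3, Nnt), the row with most UMIs kept it, and such genes are uncertain. Reads shared between paralogs or overlapping genes were not separated, and doublets were not removed.

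Length and position come from GENCODE M21 on GRCm38. The length-removed ratio subtracts what is typical (the median) for genes of like length, in 20 length bins. Alternatives were TMM and median-of-ratios scaling, a total without mitochondrial and ribosomal genes, other cell filters and depth windows (those under 10000, of 10000 to 30000 and over 60000 UMIs were added after the data were seen), equal weight per cell, a pseudocount of 5 CPM, other minimum levels, and other thinning depths and seeds. The calculations were tested on simulated data.

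Genes were named by rule: the 15 highest and 15 lowest ratios among genes with at least 50 CPM and the same sign under total, TMM, median-of-ratios and length-removed values, leaving out mitochondrially encoded, ribosomal and unnamed genes. Up to 4 members of each list with at least 20 CPM and the largest absolute ratio, and 32 anchor genes, were added. The 44 lists and the genes were chosen with earlier results of these data known. Python 3.11.15, numpy 2.4.6, scipy 1.17.1, pandas 2.3.3, matplotlib 3.10.9, R 4.3.3, edgeR 4.0.16 and DESeq2 1.42.0 were used.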

Additional observations from a re-analysis of the deposited data

Results flagged for a closer look

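Of the genes named by rule, 4 stood lower with P-G3 on day 6 and higher with P-G3 on day 3, under total, TMM, median-of-ratios and length-removed values alike. The difference between the days was not tested, since each day has 1 library a side. Trib3, a pseudokinase induced by ATF4, was at 7.33 and 11.97 CPM on day 3 and at 98.3 and 72.7 CPM on day 6. Its log2 ratio was 0.64 on day 3 and -0.43 on day 6, a difference of -1.07. Ero1l, an oxidase of protein folding, was at 44.5 and 56.9 CPM on day 3 and at 930.4 and 627 CPM on day 6, with ratios of 0.35 and -0.57, a difference of -0.92. Apln was at 7.005 and 7.66 CPM on day 3 and at 66.7 and 38.5 CPM on day 6, a difference of -0.89. Cd36 was at 60.1 and 72.6 CPM on day 3 and at 242 and 165 CPM on day 6, a difference of -0.82. The smallest of these day 6 ratios with the length trend removed is that of Ero1l, at -0.03. Trib3 on day 6 was near 0 under TMM (-0.04) and median-of-ratios (-0.04) scaling.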

How the results depend on the processing

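The 7 genes at least 2-fold higher became 89 under TMM, 85 under median-of-ratios, 26 length-removed, 12 in cells of 30000 to 60000 UMIs and 3 with every cell weighted equally. The 191 lower genes became 36 under TMM, 36 under median-of-ratios, 28 length-removed, 265 in cells of 30000 to 60000 UMIs, 85 with a pseudocount of 5 CPM, 376 at a minimum of 5 CPM and 84 at 50 CPM. Medians above 0, found for 8 of 40 lists, numbered 22 under TMM, 22 under median-of-ratios, 13 without mitochondrial and ribosomal genes and 23 length-removed, and 22 lists kept their sign under all planned settings. The difference in the Adipoq share, 13.3 points, was 8.08 at 1000 UMIs a cell. The Scd1 ratio at 4 to 9 Adipoq UMIs, -1.42, was -1.34 with ranges of the other markers, -1.49 at 20000 UMIs, -1.35 without the 5% of cells with most UMIs and -1.46 with another seed. None of the 41 named genes past 2-fold changed sign in a planned setting, but for several settings this was fixed in advance. Both scalings shift ratios by 0.40, the length bins have medians of -0.72 to 0.19, and a larger pseudocount cannot turn a sign. Some of these genes were also named for keeping their sign under scaling and length removal. Among cells under 10000 UMIs, an alternative chosen after seeing the data, 1 gene was 2-fold higher and 98 lower, and Lox (0.21), Gas1 (0.0024), Ptn (0.26), Postn (0.095), Adamts1 (0.088), Timp2 (0.15) and Timp1 (0.16) turned sign. In all, 31 of 174 named genes changed sign there, among them Adipoq (-0.07), Cfd (-0.45), Retn (-0.22) and Fabp4 (-0.11). In cells of 10000 to 30000 UMIs, also chosen after seeing the data, 14 genes were 2-fold higher and 779 lower, and in cells over 60000 UMIs 8 and 149. The causes were not tested. No paired analysis was possible because each group has 1 library and no replicate number. Culture, dissociation and library cannot be told apart from P-G3, and depth limits genes near the floor of 3 counts.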

Other observations

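Some genes outside the lists were 2-fold apart only once the length trend was taken out, and these were named after their values were seen. Sod2, the superoxide dismutase of mitochondria, was at 281 and 391 CPM on day 6 without and with P-G3, a log2 ratio of 0.47 that became 1.11. Tkt, a transketolase of the pentose phosphate pathway, was at 276 and 439 CPM (0.67, length-removed 1.09), and Alas1, which starts heme synthesis, at 73.9 and 123.8 CPM (0.74, length-removed 1.19). Apoe, the gene of a lipid-carrying apolipoprotein, was lower, at 42.3 and 20.9 CPM (-0.98, length-removed -1.12).

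Short transcripts that stood lower went against the length trend. Mgp, an inhibitor of calcification, was at 39.0 and 11.2 CPM (-1.71, length-removed -1.87). The histone genes Hist1h1b and Hist1h2ap were at 39.02 and 15.01 CPM (-1.32) and at 65.9 and 25.95 CPM (-1.31). On day 3 their ratios were -0.44 and 0.26.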
